A study of Macaca mulatta with 34 samples.

Results

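The response of the rhesus macaque deep cerebellar nuclei to the vector AAV.miS1 was compared with the response to the vector intmiS1, gene by gene, as a difference of 2 within-study changes. The change after AAV.miS1 was taken over vehicle in Study 1, the change after intmiS1 was taken over empty capsid in Study 2, and the change after intmiS1 was subtracted from the change after AAV.miS1. The comparison used 16 of the 34 libraries of the series, all of them total RNA libraries of deep cerebellar nuclei, of which the series holds 22. In Study 1, 6 animals had received AAV.miS1, a vector that encodes an artificial microRNA named miS1 aimed at ATXN1, and 4 animals had received vehicle. In Study 2, 3 animals had received intmiS1, a redesigned construct of the same microRNA, and 3 animals had received an empty capsid, which is a virus shell with no vector genome. All agents were injected into the deep cerebellar nuclei under magnetic resonance guidance, and each library carries its own animal identifier. The reference sequence of the AAV.miS1 vector in the count tables is named with mU6 and miS1, and that of intmiS1 in the tables of its replicates 1 and 2 with EF1a, hATXN1L and miS1. The labels used here state no dose, age, sex or time after injection. Study 1 was made to look into the toxicity seen with AAV.miS1, and Study 2 into immune responses to the redesigned constructs.

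The deep cerebellar nuclei are the output stage of the cerebellum, where large glutamatergic projection neurons receive inhibition from Purkinje cells. ATXN1 encodes ataxin-1, a nuclear protein that acts with the repressor capicua, and an expanded glutamine tract in it causes spinocerebellar ataxia type 1. An adeno-associated virus vector can be sensed through its capsid, its DNA or the RNA it expresses, and sensing starts interferon signalling, antigen presentation and entry of lymphocytes. p53 is a transcription factor that answers DNA damage and other stress by inducing cell cycle inhibitors and death genes.

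Levels are given as CPM, the counts of a gene per 1000000 counts on all genes, after scaling by the trimmed mean of M values (TMM), and changes as log2 fold changes from edgeR's quasi-likelihood fit of the 16 libraries. A gene was called when its Benjamini-Hochberg adjusted p over 15486 tested genes was under 0.05. Libraries of Study 1 held 2049685 to 4810852 counts, except vehicle replicate 2 with 87741. In that library 1 count is worth 9.6 CPM, and a count of 0 allows up to 3 counts, or 28.8 CPM. Empty capsid libraries held 28496977 to 39792653 counts from the program featureCounts. Replicate 3 of intmiS1 held 32289107 counts from featureCounts, and replicates 1 and 2 held 5169866 and 4858179 counts from STAR. Over all genes, intmiS1 replicates 1 and 2 had Spearman correlations of 0.896 to 0.908 with the empty capsid libraries, and replicate 3 had 0.984 to 0.988, so counting program and animal cannot be told apart within intmiS1. Study, kind of control, counting program and strand handling differ between the 2 arms as well and cannot be told apart from the vector. The mean of empty capsid lay over 2-fold above that of vehicle in 1906 genes (12.3% of those tested) and over 2-fold below it in 405 (2.62%). SLC17A6, the vesicular glutamate transporter of the projection neurons, was at 67.2 to 180 CPM in vehicle and 159 to 191 CPM in empty capsid. GFAP of astrocytes was at 6219 CPM or more in every control library. The granule cell gene GABRA6 was at 1.59 to 84.6 CPM in vehicle and 0.313 to 2.05 CPM in empty capsid, a spread among control samples that returns with the granule cell genes.

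ATXN1, the target of the microRNA, was lower on average after each vector, without passing the test in either arm. It was at 92.1, 96.0, 87.8 and 87.4 CPM in vehicle and between 46.5 and 91.0 CPM after AAV.miS1 (median 55.6). In 5 of the 6 AAV.miS1 libraries it was below all vehicle libraries, at 60.5 CPM or less, and replicate 1 alone was at 91.0. In Study 2 it was at 47.7, 56.0 and 60.9 CPM in empty capsid and at 54.2, 31.1 and 46.3 CPM after intmiS1, so the groups overlapped. The change was -0.58 ± 0.19 (SE) after AAV.miS1 (edgeR adjusted p = 0.0546) and -0.32 after intmiS1 (95% interval -0.82 to 0.18, edgeR adjusted p = 0.895). The difference between the arms was -0.26 ± 0.30 (SE, 95% interval -0.91 to 0.39, edgeR adjusted p = 0.689), and it was -0.12 without intmiS1 replicate 1 and -0.49 without intmiS1 replicate 2. The 2 vectors were therefore not shown to differ in their effect on ATXN1 transcript, and the interval includes differences of up to 0.91 on the log2 scale. ATXN7, which neither vector is aimed at, differed by -0.08 (95% interval -0.69 to 0.54, edgeR adjusted p = 0.943). ATXN1L, the paralogue named in the intmiS1 construct, was at 63.4 to 75.7 CPM in empty capsid and at 87.2, 99.7 and 90.0 CPM after intmiS1. It was at 57.6 to 106 CPM in vehicle and 90.8 to 168 CPM after AAV.miS1, and its difference of 0.07 (95% interval -0.53 to 0.67) became -0.13 under upper-quartile scaling.

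Many genes passed the test after AAV.miS1 and none after intmiS1. After AAV.miS1, 1988 genes rose (12.8% of those tested) and 377 fell (2.43%); under upper-quartile scaling the split was 1692 and 597. After intmiS1 no gene passed edgeR's test, with a smallest adjusted p of 0.0749, 865 genes at an unadjusted p under 0.05, and 22 calls by DESeq2 (21 higher, 0.136%, and 1 lower, 0.00646%). This arm has 3 libraries per group, and its treated group mixes both counting programs. Without intmiS1 replicate 3 edgeR called 171 genes higher and 860 lower of 15838 tested. There STAR counts are set against featureCounts controls, so program and vector cannot be told apart. Of the genes that rose after AAV.miS1, 1985 of 1988 had a difference above 0, with median changes of 1.91 after AAV.miS1 and 0.21 after intmiS1. Of the genes that fell after AAV.miS1, 376 of 377 had a difference below 0, with medians of -0.91 and -0.08. These signs were in part fixed by the selection on the AAV.miS1 arm. Over all genes the median difference was 0.10 with TMM and -0.07 with upper-quartile scaling, a shift of the whole scale against which small differences have to be read.

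The difference itself passed edgeR's test in no gene. Its smallest adjusted p was 0.153, 2653 genes were at an unadjusted p under 0.05 (2013 above 0 and 640 below), and the median 95% interval reached 0.99 to either side on the log2 scale. DESeq2 on the same counts called 446 genes, 395 above 0 (2.55%) and 51 below (0.329%). The edgeR count depended on 2 libraries. Without AAV.miS1 replicate 5 edgeR called 771 genes above 0 (4.95%) and 83 below (0.533%), and without intmiS1 replicate 3 edgeR called 648 (4.09%) and 83 (0.524%). With intmiS1 replicate 3 as the only intmiS1 library edgeR called 0 genes, as with all libraries, and DESeq2 called 5. As a description that needs no model, each treated library was set against the mean of its own controls. In 2253 genes (14.5%) all 6 AAV.miS1 libraries deviated further upward than all 3 intmiS1 libraries, and in 1253 genes (8.09%) further downward. These counts of non-overlapping deviations carry the error of the control means, which all libraries of an arm share.

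**Figure D1:**
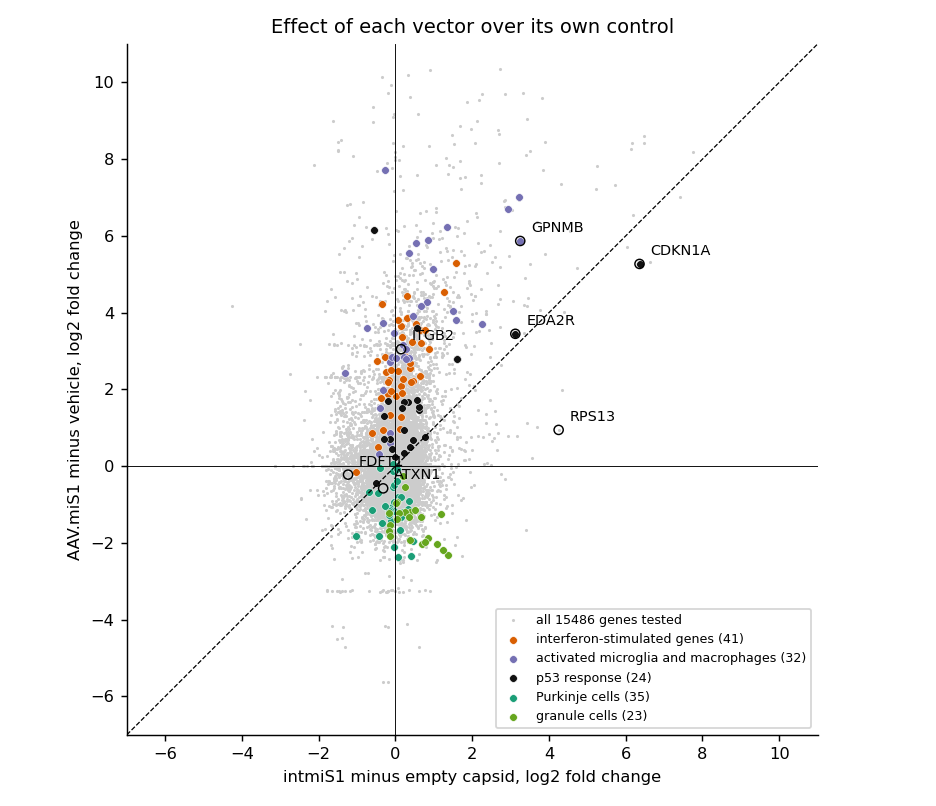
Log2 fold change after AAV.miS1 over vehicle (vertical axis) against that after intmiS1 over empty capsid (horizontal axis) for each of the 15486 genes tested, with 5 gene lists in colour and 7 genes ringed. Genes on the dashed line changed alike in both arms: interferon and macrophage genes lie above it, most of them near a horizontal value of 0, all granule cell genes and all but 3 Purkinje cell genes lie below it, CDKN1A and EDA2R lie near it, and 2 genes fall outside the plotted range.

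The 4 genes with the smallest p among positive differences were IL33, LYL1, APOL6 and ITGB2. IL33, an alarm cytokine released by damaged glia, was at 6.46, 9.60, 19.8 and 9.85 CPM in vehicle and 38.1 to 83.6 CPM after AAV.miS1 (median 50.3). In Study 2 it was at 37.2, 23.1 and 19 CPM in empty capsid and 16.6, 20.6 and 15.4 CPM after intmiS1. The lowest AAV.miS1 value of IL33 exceeded the highest vehicle value, while the Study 2 groups overlapped. The difference for IL33 was 2.86 ± 0.52 (SE, 95% interval 1.76 to 3.96, edgeR adjusted p = 0.153, DESeq2 adjusted p = 0.000697). ITGB2, the beta subunit of leukocyte integrins, was at 27.9, 48.0, 27.2 and 29.9 CPM in vehicle and 67.9 to 382 CPM after AAV.miS1 (median 285.7). It was at 29.5, 25.8 and 25.5 CPM in empty capsid and 24.2, 30.9 and 34.1 CPM after intmiS1. The lowest AAV.miS1 library, replicate 5, was thus still above every other library for ITGB2. Its difference was 2.90 ± 0.58 (SE, 95% interval 1.67 to 4.13, DESeq2 adjusted p = 0.00191). APOL6, an interferon-inducible apolipoprotein, stayed between 3.07 and 6.43 CPM in all Study 2 libraries and reached 7.76 to 89.5 CPM after AAV.miS1 from 0 to 1.91 CPM in vehicle. The differences for APOL6 and for LYL1, a transcription factor of blood cell lineages, were 4.84 and 3.47 (DESeq2 adjusted p = 0.000781 and 0.0019).

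Negative differences led with SLC9A2, ZDHHC14, ATP5F1B and SLC2A12. SLC9A2, a sodium and proton exchanger, was at 4.04, 0, 5.07 and 6.35 CPM in vehicle, the 0 being in the shallow replicate 2, and at 0 to 0.789 CPM after AAV.miS1 (median 0.661). It was at 6.42, 5.56 and 5.06 CPM in empty capsid and 5.73, 7.93 and 4.38 CPM after intmiS1. All AAV.miS1 libraries were thus below the 3 deeper vehicle libraries, and the Study 2 groups overlapped. The difference was -3.23 ± 0.62 (SE, 95% interval -4.56 to -1.90, DESeq2 adjusted p = 0.00303). It depended on the strand column: 73.3% of the stranded counts on SLC9A2, summed over the STAR libraries, were in the other strand column than the one taken for Study 1, and with the unstranded column for Study 1 the difference was -0.52 (edgeR adjusted p = 0.611). SLC2A12, a glucose transporter, was at 48.0 to 57.2 CPM in vehicle and 21.6 to 38.1 CPM after AAV.miS1, and at 38.3, 44.0 and 45.9 CPM in empty capsid and 53.8, 52.1 and 48.8 CPM after intmiS1. It fell after AAV.miS1 (change -0.87, edgeR adjusted p = 0.00626), and the difference was -1.14 ± 0.27 (SE, DESeq2 adjusted p = 0.00966). For ZDHHC14, a palmitoyltransferase, the intmiS1 arm held most of the difference of -1.05. It was at 74.8, 68.7 and 56.2 CPM in empty capsid and 108, 130 and 85.6 CPM after intmiS1, against 89.9 to 116 CPM in vehicle and 72.3 to 88.4 CPM after AAV.miS1. The difference for ATP5F1B, a subunit of ATP synthase, was -2.54 with all libraries and -0.61 with intmiS1 replicate 3 as the only intmiS1 library.

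Interferon-stimulated genes showed a wide gap between the arms. Of 48 such genes listed 41 were tested, and 36 of them rose after AAV.miS1 and none fell, beside 12.8% and 2.43% of all genes. Their median change was 2.47 after AAV.miS1 and 0.15 after intmiS1, and the median difference was 2.38, beside 0.10 over all genes. The deviations did not overlap upward in 28 of the 41, beside 14.5% of all genes. The 95% interval of the difference lay above 0 in 37 of 41, beside 13% of all genes. edgeR called the difference in none of the 41 and DESeq2 in 11, beside 2.55% of all genes. For the lists below the shares of all genes are the same: 12.8% rose and 2.43% fell after AAV.miS1. Deviations did not overlap upward in 14.5% and downward in 8.09%. The summed level of the 41 genes was 562 to 890.5 CPM in vehicle, 1088 to 6040 CPM after AAV.miS1, 838 to 970 CPM in empty capsid and 828 to 948 CPM after intmiS1. BST2, a membrane protein that tethers enveloped virus particles, was at 2.02, 0, 1.60 and 1.59 CPM in vehicle, 4.53 to 36.2 CPM after AAV.miS1 (median 23.4), 2.95, 3.48 and 4.18 CPM in empty capsid and 3.69, 5.36 and 6.15 CPM after intmiS1. Its change was 3.71 after AAV.miS1 (edgeR adjusted p = 0.00474) and 0.54 after intmiS1, where the groups overlapped (95% interval -0.46 to 1.54). The differences for BST2 and for UBE2L6, which conjugates the ubiquitin-like protein ISG15, were 3.17 ± 0.70 and 2.39 ± 0.56 (SE). IFIT1, a classical interferon target picked with its values in view, had a difference of 1.45 (95% interval -0.19 to 3.10).

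Sensors of foreign nucleic acid and the display of peptides followed the same division. Of 18 tested genes for nucleic acid sensing 12 rose after AAV.miS1 and none fell, with medians of 2.02 after AAV.miS1 and 0.17 after intmiS1, and deviations did not overlap upward in 10. UNC93B1, which carries nucleic acid sensing Toll-like receptors to endosomes, was at 5.87 to 9.60 CPM in vehicle and 18.4 to 144 CPM after AAV.miS1 (median 90.8). It was at 10.2, 6.38 and 9.83 CPM in empty capsid and 9.21, 10.9 and 6.61 CPM after intmiS1, so only the Study 1 groups were apart. Its difference was 3.50 ± 0.74 (SE), and that of IKBKE, a kinase that activates interferon regulatory factors, was 4.59 ± 1.01. Of 12 tested MHC class I genes 10 rose after AAV.miS1, with medians of 2.40 and 0.13 in the 2 arms and 8 genes with non-overlapping deviations upward. PSMB9, a subunit of the immunoproteasome, reached 5.17 to 32.2 CPM after AAV.miS1 from 0 to 3.23 CPM in vehicle, and was at 4.72 to 5.87 CPM in empty capsid and 1.84 to 4.87 CPM after intmiS1. The differences were 3.72 ± 0.81 for PSMB9 and 2.24 ± 0.48 for ERAP1, which trims peptides for class I molecules (SE).

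MHC class II presentation had the largest median change of the antigen display lists after AAV.miS1, and a median above 0 after intmiS1. All 9 tested genes, of 20 listed, rose after AAV.miS1. Their medians were 4.37 after AAV.miS1 and 0.73 after intmiS1, and the median difference was 3.74. The 95% interval of the difference lay above 0 in all 9, but deviations of all libraries were apart in only 2 of 9, and in 9 of 9 without AAV.miS1 replicate 5. IFI30, a reductase that unfolds antigens in lysosomes, was at 6.46, 19.2, 7.47 and 4.13 CPM in vehicle and 21.98 to 1189 CPM after AAV.miS1 (median 324). It was at 7.398, 8.50 and 9.66 CPM in empty capsid and 11.9, 23.6 and 14.1 CPM after intmiS1. All 3 intmiS1 libraries were above the empty capsid libraries for IFI30, by a change of 0.95 with an interval that includes 0 (-0.92 to 2.81). Its difference was 5.13 ± 1.28 (SE), and that of CTSS, the protease that frees class II molecules for loading, was 3.74 ± 1.05.

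Most complement and secreted signal genes rose after AAV.miS1, and several were also above the empty capsid range after intmiS1. Of 19 tested complement genes 14 rose after AAV.miS1, with medians of 2.87 and 0.16. In every intmiS1 library 6 of the 19 were above all empty capsid libraries and 3 below, beside 10.7% and 12.3% of all genes. SERPING1, the inhibitor of the C1 protease, was at 31.5, 48.0, 31.2 and 26.1 CPM in vehicle, 128 to 348 CPM after AAV.miS1 (median 232), 25.4, 19.5 and 23.1 CPM in empty capsid and 31.3, 51.9 and 37.0 CPM after intmiS1. The treated groups were above their controls in both studies. The change was 2.93 after AAV.miS1 (edgeR adjusted p = 0.00264) and 0.82 after intmiS1 (95% interval 0.10 to 1.54, edgeR adjusted p = 0.866), with a difference of 2.11 ± 0.45 (SE, DESeq2 adjusted p = 0.006). Of 26 tested chemokines and cytokines 20 rose after AAV.miS1, the medians were 3.28 and 0.79 (0.21 with intmiS1 replicate 3 alone), and 9 of the 26 were above all empty capsid libraries in every intmiS1 library. IL1RN, the antagonist of the interleukin-1 receptor, was at 1.62 to 16.7 CPM after AAV.miS1 and at 0.534 CPM or less in every other library, with a difference of 5.16 ± 1.42 (SE). Of 16 tested NF-kB response genes 11 rose after AAV.miS1, with medians of 1.48 and 0.15.

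Phagocyte genes had the largest summed level of the immune lists after AAV.miS1 and a level near that of empty capsid after intmiS1. Of 32 tested genes of activated microglia and macrophages 27 rose after AAV.miS1, with a median change of 3.65 beside 0.27 after intmiS1. Their summed level was 2506 to 4533 CPM in vehicle, 4617 to 75800 CPM after AAV.miS1, 2474 to 2726 CPM in empty capsid and 2263 to 2870 CPM after intmiS1. Gene by gene, 9 of the 32 were above all empty capsid libraries in every intmiS1 library, beside 10.7% of all genes. In the other direction 1 of the 32 was below them all, beside 12.3%. Deviations did not overlap upward in 9 of the 32, and in 24 of 32 without AAV.miS1 replicate 5, beside 21.8% of all genes without it. TREM2, a lipid receptor of phagocytes, was at 7.67, 9.60, 6.94 and 4.45 CPM in vehicle and 28.4 to 196 CPM after AAV.miS1 (median 94.2). It was at 11.2, 5.13 and 8.92 CPM in empty capsid and 7.58, 16.5 and 10.7 CPM after intmiS1, so the groups were apart in Study 1 and overlapped in Study 2. The difference for TREM2 was 3.47 ± 0.76 (SE, 95% interval 1.85 to 5.09, DESeq2 adjusted p = 0.00487). The lysosomal protease CTSB reached 857 to 13650 CPM after AAV.miS1 and had a difference of 4.35 ± 1.01 (SE). Its intmiS1 values split by table, at 130 and 153 CPM in replicates 1 and 2 and 345 CPM in replicate 3. In empty capsid CTSB was at 330 to 366 CPM. GPNMB, a marker of lipid-laden macrophages named here after its values were seen, was at 38.9, 113 and 11.4 CPM after intmiS1 and 6.80, 7.13 and 3.06 CPM in empty capsid. All intmiS1 libraries were above all empty capsid libraries for GPNMB, by a change of 3.25 (95% interval -0.11 to 6.61), while AAV.miS1 libraries held 205 to 15580 CPM. In vehicle it was at 17.4, 442, 36.04 and 2.54 CPM, so the shallow replicate 2 lay within the AAV.miS1 range.

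Of 10 tested genes of homeostatic microglia 6 rose after AAV.miS1, with medians of 1.24 after AAV.miS1 and 0.00 after intmiS1, and TGFBR1, a receptor for transforming growth factor beta, differed by 2.10 ± 0.54 (SE). P2RY12, the purine receptor of resting microglia, was at 63.0 to 84.5 CPM in vehicle and 56.1 to 101 CPM after AAV.miS1, and its difference was 0.47 (95% interval -0.21 to 1.14). TMEM119, another marker of resting microglia, was at 0 counts in all 3 intmiS1 libraries and had some counts in each other group. Its level there is not given, so no change is read from this. The summed level of the 10 tested genes overlapped in Study 2, at 885 to 1022 CPM in empty capsid and 878 to 1107 CPM after intmiS1. Lysosomal genes, which overlap with the phagocyte list, rose in 22 of 33 after AAV.miS1, with medians of 1.86 and 0.19. CTSZ and GUSB, a lysosomal protease and a glycosidase, had the smallest p there, with differences of 3.70 ± 0.83 and 3.97 ± 0.91 (SE). In such bulk tissue, more cells of a type and more RNA per cell cannot be told apart, here and for each cell type below.

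Most lymphocyte genes tested rose after AAV.miS1. Their medians after intmiS1 depended on the libraries used. With replicate 3 as the only intmiS1 library they were 0.37 for T cells, 0.75 for cytotoxic lymphocytes and 0.19 for B cells. Each was less than the value with all 3 libraries. Replicate 3 was counted like its controls, but it is also another animal, and the 2 cannot be told apart. Of 28 tested T cell genes 22 rose after AAV.miS1, with medians of 3.49 after AAV.miS1 and 0.77 after intmiS1, and deviations did not overlap upward in 10. The summed T cell level was 66.1 to 99.8 CPM in vehicle, 90.5 to 992 CPM after AAV.miS1, 34.5 to 94.7 CPM in empty capsid and 72.7 to 87.7 CPM after intmiS1. All intmiS1 sums thus lay below the highest empty capsid library, and the lowest AAV.miS1 sum, in replicate 5, lay within the vehicle range. CD40LG, CD8B, CTLA4, LCK, TIGIT and TRAT1 of this list were at 0 counts in all vehicle libraries. PDCD1, the inhibitory receptor of activated T cells, was at 0.404 CPM or less in vehicle and 0.647 to 14.9 CPM after AAV.miS1, and at 0.601 to 3.13 CPM in empty capsid and 0.614 to 1.29 CPM after intmiS1. The differences were 5.41 ± 1.45 for PDCD1 and 3.38 ± 0.93 for LAT, an adaptor of T cell receptor signalling (SE). Of 12 tested cytotoxic lymphocyte genes 10 rose after AAV.miS1, and the medians were 4.78 after AAV.miS1 and 1.74 after intmiS1. No gene of it had non-overlapping deviations with all libraries, and 7 of 12 had them without AAV.miS1 replicate 5. NKG7, a granule protein of killer lymphocytes, was at 0.970 to 26.1 CPM after AAV.miS1, with 0 counts in 3 of the 4 vehicle libraries, and at 0.819, 3.002 and 0.987 CPM after intmiS1 beside 0.632 to 1.10 CPM in empty capsid. Its difference was 5.85, and 1.92 with the unstranded column for Study 1. Of 19 tested B cell and plasma cell genes 14 rose after AAV.miS1, with medians of 3.91 and 0.81. CD72, a coreceptor of B cells, differed by 4.71 ± 1.07 (SE), but its intmiS1 values split by table, at 1.84 and 8.36 CPM in replicates 1 and 2 and 22.1 CPM in replicate 3. Granulocytes left little trace: 3 of 17 listed genes were tested, and S100A12, S100A8 and S100A9 were at 0 counts in every AAV.miS1 and intmiS1 library. Of 13 listed red cell genes only 1, AHSP, was tested, and it was at 8.6 CPM or less in every library. Hemoglobin genes were not among the genes tested.

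**Figure D2:**
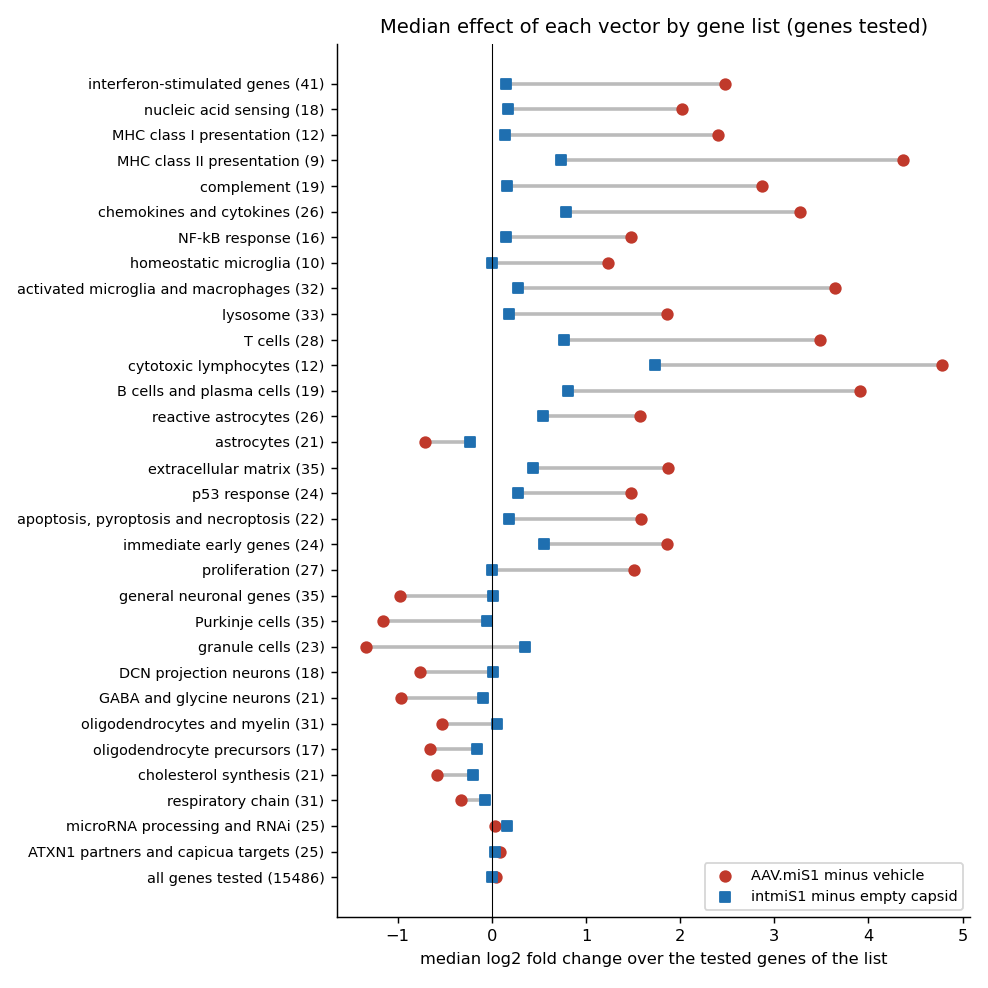
Median log2 fold change over the tested genes of each list (number tested in brackets) after AAV.miS1 over vehicle, as circles, and after intmiS1 over empty capsid, as squares, with a grey line for the gap between them. Immune lists other than homeostatic microglia (1.24) reach 1.48 to 4.78 after AAV.miS1 with intmiS1 at 1.74 or less, and neuronal lists lie at -1.34 to -0.76 after AAV.miS1 with intmiS1 between -0.10 and 0.35.

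Many injury genes of astrocytes rose after AAV.miS1. Of 26 tested reactive astrocyte genes 15 rose after AAV.miS1, with medians of 1.58 and 0.54 (0.25 with intmiS1 replicate 3 alone). In every intmiS1 library 9 of the 26 were above all empty capsid libraries, beside 10.7% of all genes. CP, the ferroxidase ceruloplasmin, was at 12.1, 0, 6.14 and 8.58 CPM in vehicle and 51.4 to 413 CPM after AAV.miS1 (median 210.7). It was at 14.9, 17.6 and 15.7 CPM in empty capsid and 17.2, 44.4 and 28.7 CPM after intmiS1. AAV.miS1 libraries were apart from vehicle, and the Study 2 groups overlapped by 1 library. CP differed by 3.88 ± 0.81 and VIM, the intermediate filament vimentin, by 3.65 ± 0.91 (SE, DESeq2 adjusted p = 0.00191 and 0.00794). GFAP, the classical astrocyte filament, was below all vehicle libraries in AAV.miS1 replicate 1 and above them in the other 5, and its difference was 0.68 (95% interval -0.69 to 2.04). The 21 genes of resting astrocytes had medians of -0.71 and -0.24 with 1 rise and no fall after AAV.miS1. In every intmiS1 library 5 of the 21 were below all empty capsid libraries and 1 above, beside 12.3% and 10.7% of all genes. Extracellular matrix genes rose in 20 of 35 after AAV.miS1 with a median of 1.88. After intmiS1 their median was 0.43. In every intmiS1 library 15 of the 35 were above all empty capsid libraries, beside 10.7% of all genes. Their summed level went the other way, at 4250, 4337 and 5092 CPM in empty capsid and 4096, 3444 and 3932 CPM after intmiS1. MMP14, a membrane-bound matrix protease, differed by 3.43 ± 0.99 and COL1A1, a chain of type I collagen, by 3.98 ± 1.37 (SE). For COL1A1 this was 0.27 with the Study 1 libraries over 15% unmapped reads and 7.201 with those under it. Of 27 tested cell division genes 15 rose after AAV.miS1, and their median after intmiS1 was 0.01. TOP2A, the topoisomerase of dividing cells, was at 3.13 to 32.4 CPM after AAV.miS1 and at 1.38 CPM or less in every other library, with a difference of 4.40 ± 1.25 (SE).

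Neuronal genes had negative median differences as lists, but no single difference passed edgeR's or DESeq2's test with all libraries. The 35 tested genes of most neurons had medians of -0.97 after AAV.miS1 and 0.01 after intmiS1. After AAV.miS1 3 of the 35 fell and none rose. Deviations did not overlap downward in 8 of the 35, beside 8.09% of all genes. Their summed level was 4936 to 9273 CPM in vehicle, 380 to 8980 CPM after AAV.miS1, 7950 to 10100 CPM in empty capsid and 7138 to 10590 CPM after intmiS1. CAMK2B, a calcium-dependent kinase subunit, was at 150, 125, 147 and 123 CPM in vehicle and 42.1 to 97.6 CPM after AAV.miS1 (median 76.8). It was at 132, 145 and 120 CPM in empty capsid and 189, 136 and 119 CPM after intmiS1. The groups were apart in Study 1 and overlapped in Study 2. CAMK2B fell by 0.97 on the log2 scale after AAV.miS1 (edgeR adjusted p = 0.00929), and the difference was -1.14 ± 0.34 (SE, 95% interval -1.86 to -0.41, DESeq2 adjusted p = 0.0566). DLG4, the postsynaptic scaffold PSD-95, differed by -1.35 ± 0.45 (SE).

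Purkinje cell genes included several that fell after AAV.miS1. Of 35 tested 10 fell after AAV.miS1 and none rose, with medians of -1.15 after AAV.miS1 and -0.05 after intmiS1. Deviations did not overlap downward in 13 of the 35, beside 8.09% of all genes. The 95% interval of the difference lay below 0 in 6 of the 35, beside 4.17% of all genes. The summed level was 3356 to 4246 CPM in vehicle and 597 to 2790 CPM after AAV.miS1, which do not overlap, and 3008 to 3219 CPM in empty capsid and 2471 to 3216 CPM after intmiS1, which do. CACNA1G, a T-type calcium channel, was at 40.8, 57.6, 75.01 and 27.96 CPM in vehicle, 1.72 to 27.2 CPM after AAV.miS1 (median 11.5), 32.5, 21.7 and 18.96 CPM in empty capsid and 37.3, 30.45 and 32.8 CPM after intmiS1. All AAV.miS1 libraries were below all vehicle libraries, replicate 5 only just, and all intmiS1 libraries but replicate 2 were above all empty capsid libraries. CACNA1G fell after AAV.miS1 (edgeR adjusted p = 0.0162), and its difference was -2.41 ± 0.76 (SE). CALB1, the calcium buffer calbindin, was at 35.95, 28.8, 76.3 and 21.0 CPM in vehicle and 1.48 to 19.97 CPM after AAV.miS1, and at 22.3 to 30.1 CPM in empty capsid and 24.6 to 28.1 CPM after intmiS1. The Study 2 values of CALB1 lay within a narrow band, and its difference was -2.05 (95% interval -3.63 to -0.46).

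Granule cell genes had the lowest median difference of any list, at -1.66, but rested on uneven controls. Of 23 tested 2 fell after AAV.miS1, and the medians were -1.34 after AAV.miS1 and 0.35 after intmiS1. Deviations did not overlap downward in 11 of the 23, beside 8.09% of all genes. Their summed level was 3106, 3563, 4153 and 1220 CPM in the 4 vehicle libraries and 341 to 2719 CPM after AAV.miS1, so vehicle replicate 4 lay inside the AAV.miS1 range. GRM4, a metabotropic glutamate receptor of granule cells, was at 140, 230, 142 and 23.8 CPM in vehicle, 4.18 to 105 CPM after AAV.miS1, 23.0, 27.1 and 26.6 CPM in empty capsid and 49.5, 36.7 and 44.4 CPM after intmiS1. It was above all empty capsid libraries in every intmiS1 library, and its difference was -2.74 (95% interval -5.09 to -0.39). NEUROD2, a transcription factor of these neurons, differed by -2.30 ± 1.02 (SE). How far the amount of granule layer in a sample set these values was not tested.

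The 18 tested genes of the projection neurons, the principal cells of the nuclei, had medians of -0.76 after AAV.miS1 and 0.01 after intmiS1. After AAV.miS1 2 of the 18 rose and none fell, beside 12.8% and 2.43% of all genes. SLC17A6 was at 0 to 131 CPM after AAV.miS1 and 96.3 to 174 CPM after intmiS1, and its difference was -0.55 (95% interval -3.20 to 2.09). SST, which encodes somatostatin and is on this list, went the other way with 0.492 to 6.14 CPM after AAV.miS1, at most 0.404 CPM in vehicle, 0.546 to 1.69 CPM in empty capsid, 0.214 to 0.614 CPM after intmiS1 and a difference of 5.90 ± 1.45 (SE), while MEIS2, a transcription factor, differed by -1.33 ± 0.64. The 21 tested genes of inhibitory neurons had medians of -0.96 and -0.10 with no call, and GPHN, the anchor of inhibitory receptors, differed by -0.93 ± 0.39 (SE).

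Oligodendrocyte and sterol genes also had negative median differences. Of 31 tested identifiers of oligodendrocyte and myelin genes 5 fell after AAV.miS1 and none rose. The medians were -0.53 after AAV.miS1 and 0.06 after intmiS1. Deviations did not overlap downward in 10 of the 31, beside 8.09% of all genes. FA2H, which makes the hydroxylated lipids of myelin, was at 218, 182, 161 and 130 CPM in vehicle, 58.8 to 143 CPM after AAV.miS1 (median 112), 144, 123 and 118 CPM in empty capsid and 186, 194 and 140 CPM after intmiS1. Both pairs of groups overlapped for FA2H, and its difference was -1.12 ± 0.35 (SE, DESeq2 adjusted p = 0.0692). SOX10, the master transcription factor of the lineage, differed by -0.78 ± 0.29 (SE), and by -0.50 with intmiS1 replicate 3 alone. The 17 tested precursor genes had medians of -0.65 and -0.16 with 1 fall. Of these 5 were below all empty capsid libraries in every intmiS1 library, beside 12.3% of all genes. Of 21 tested cholesterol synthesis genes 5 fell after AAV.miS1 and none rose, and the medians were -0.58 and -0.20. In every intmiS1 library 7 of the 21 were below all empty capsid libraries, beside 12.3% of all genes, and none was above them. Deviations did not overlap downward in 3 of the 21 and upward in 2, beside 8.09% and 14.5% of all genes. SREBF2, the transcription factor that drives the pathway, was at 240 to 313 CPM in vehicle and 119 to 239.6 CPM after AAV.miS1, and at 211 to 222 CPM in empty capsid and 209 to 240 CPM after intmiS1. The Study 1 groups were just apart, and SREBF2 fell by 0.85 on the log2 scale (edgeR adjusted p = 0.00637). Its difference was -0.89 ± 0.27, and that of SQLE, squalene epoxidase, was -1.15 ± 0.43 (SE; -0.69 with the unstranded column for Study 1).

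A pair of p53 targets was high after both vectors. CDKN1A, which encodes the cell cycle inhibitor p21, was at 3.23, 0, 6.67 and 1.59 CPM in vehicle and 34.6 to 485 CPM after AAV.miS1 (median 83.7). It was at 1.36, 0.822 and 1.76 CPM in empty capsid and 94.8, 153.5 and 80.1 CPM after intmiS1. Treated and control libraries were far apart in both studies, and each intmiS1 library, whichever program counted it, was within the AAV.miS1 range. The change was 5.27 ± 0.85 (SE) after AAV.miS1 (edgeR adjusted p = 0.00496) and 6.36 after intmiS1 (95% interval 4.39 to 8.32), the latter with the smallest p of all genes in that arm (edgeR adjusted p = 0.0749, DESeq2 adjusted p = 3.714e-12). The difference was -1.09 (95% interval -3.39 to 1.21, edgeR adjusted p = 0.622). EDA2R, a receptor of the tumour necrosis factor family that p53 induces, was at 0 to 1.62 CPM in vehicle and 3.23 to 23.0 CPM after AAV.miS1, and at 0.655, 1.14 and 0.351 CPM in empty capsid and 4.71, 10.3 and 4.15 CPM after intmiS1. Again the groups did not overlap in either study. Its changes were 3.45 (edgeR adjusted p = 0.00718) and 3.12 (95% interval 1.74 to 4.51, DESeq2 adjusted p = 0.00644), and its difference of 0.33 (95% interval -1.75 to 2.40) took either sign across the alternatives. CDKN1A and EDA2R were named here after their values were seen.

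The p53 list as a whole had a lower median after intmiS1. Of 24 tested genes 14 rose after AAV.miS1, with medians of 1.48 after AAV.miS1 and 0.28 after intmiS1. In every intmiS1 library 8 of the 24 were above all empty capsid libraries, beside 10.7% of all genes. MDM2, the ubiquitin ligase that limits p53, was at 60.6 to 76.8 CPM in vehicle and 62.4 to 256 CPM after AAV.miS1, and at 113, 99.0 and 96.1 CPM in empty capsid and 61.8, 59.2 and 129 CPM after intmiS1. Its change after intmiS1 was -0.29 (95% interval -1.20 to 0.61) and its difference 1.60 ± 0.56 (SE). The intmiS1 values split by count table, and with replicate 3 alone the change was 0.34 and the difference 0.88. GDF15, a stress cytokine, was at 0.647 to 54.6 CPM after AAV.miS1, at 0.429 CPM or less in all Study 2 libraries, and in vehicle at 0, 9.60, 0 and 0.318 CPM, the second being 1 count, with a difference of 6.73 ± 2.28 (SE). RCHY1, another ubiquitin ligase that acts on p53, was the only gene DESeq2 called lower after intmiS1 and was named for that reason. It was at 64.1, 58.7 and 64.05 CPM in empty capsid and 39.1, 39.7 and 35.1 CPM after intmiS1, with no overlap and no split by counting program (change -0.72, DESeq2 adjusted p = 0.00816, edgeR adjusted p = 0.818). In Study 1 RCHY1 was at 43.6, 19.2, 47.0 and 55.0 CPM in vehicle and 32.4 to 38.9 CPM after AAV.miS1 (change -0.35, edgeR adjusted p = 0.135). Of 22 tested cell death genes 16 rose after AAV.miS1, with medians of 1.58 and 0.18, and TNFRSF1B, a tumour necrosis factor receptor, and GSDMD, the pore protein of pyroptosis, differed by 2.04 ± 0.59 and 3.21 ± 0.95 (SE).

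Immediate early genes, which encode transcription factors induced by activity or injury, rose in many cases after AAV.miS1 and were often above the empty capsid range after intmiS1. Of 24 tested 17 rose after AAV.miS1, and the medians were 1.86 and 0.55 (0.29 with intmiS1 replicate 3 alone). In every intmiS1 library 10 of the 24 were above all empty capsid libraries, beside 10.7% of all genes. EGR3 was at 0.808, 0, 0.534 and 1.27 CPM in vehicle, 17.0 to 53.1 CPM after AAV.miS1 (median 28.5), 1.23, 1.02 and 2.84 CPM in empty capsid and 11.5, 4.93 and 3.32 CPM after intmiS1. Treated libraries were above control libraries in both studies. Its changes were 5.24 and 1.91 (95% interval of the latter 0.75 to 3.06), and its difference was 3.33 ± 0.86 (SE, DESeq2 adjusted p = 0.0276). ATF3, induced by axon and cell stress, differed by 2.97 ± 0.89 (SE), with Study 2 groups of 2.58 to 4.39 CPM and 2.79 to 4.09 CPM that overlapped.

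**Figure D3:**
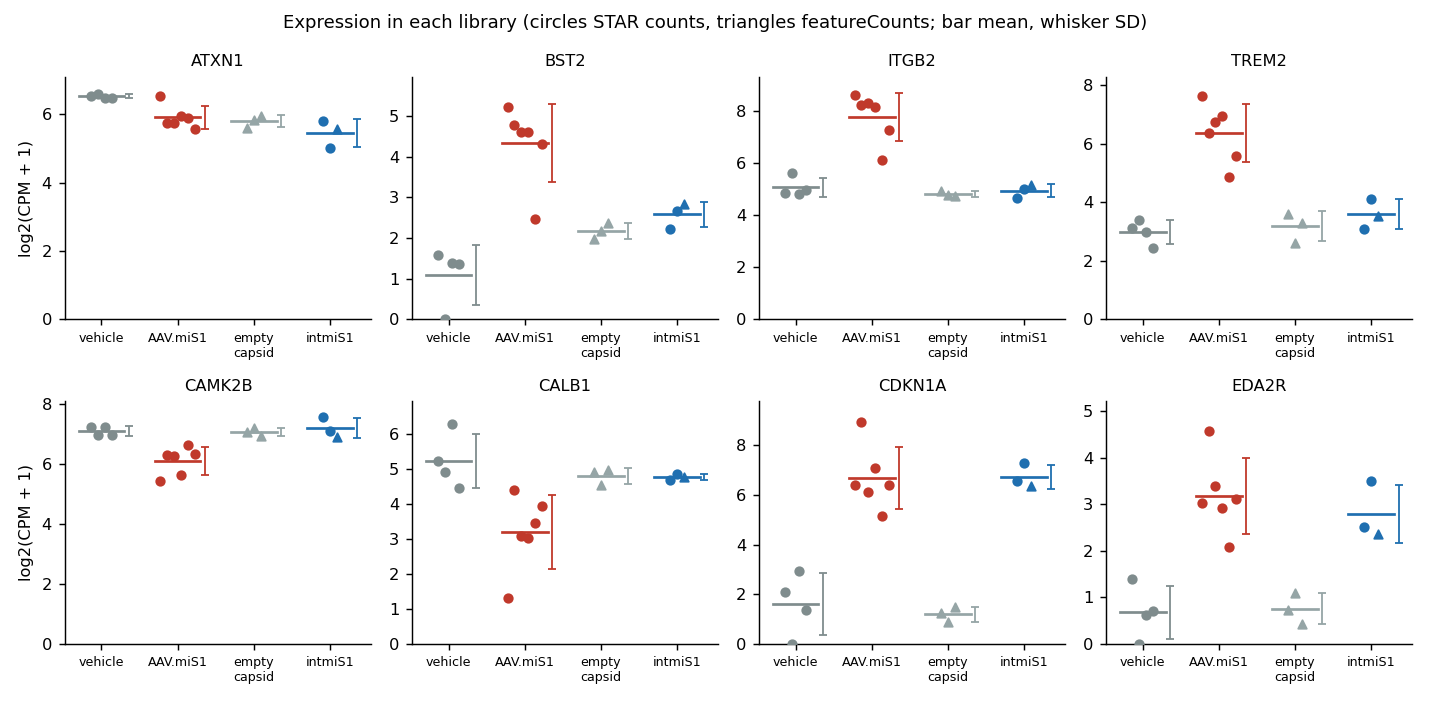
Log2(CPM + 1) of 8 genes in each of the 16 libraries by group, with points for libraries, a bar for the mean of the log2 values and a whisker for their SD. The means of BST2, ITGB2 and TREM2 are highest and those of CAMK2B and CALB1 lowest after AAV.miS1, with the lowest AAV.miS1 library of BST2 among the intmiS1 libraries, CDKN1A and EDA2R are high after both vectors, and ATXN1 is on average lower after each, with overlap.

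A wider view of what the arms had in common came from the 1988 genes that rose after AAV.miS1. In 398 of them (20.02%) every intmiS1 library was above every empty capsid library, against 10.7% of all tested genes, and in 73 (3.67%) every intmiS1 library was below, against 12.3%. The 2 arms share no control library. At an unadjusted p under 0.05, 94 of the 1988 (4.73%) were higher after intmiS1, beside 2.62% of all tested genes. Together, 54 genes, 0.349% of those tested, rose after AAV.miS1, did not overlap in either study and were higher after intmiS1 at that p. In Study 1 alone, 7.14% of tested genes were above the vehicle range in every AAV.miS1 library. Besides CDKN1A and EDA2R they included BBC3, which encodes the p53-induced death protein PUMA, the immediate early genes FOS, EGR1, EGR2 and EGR3, the cytokines CCL2, CCL3, IL1B and CXCL8, and the complement genes C1S and SERPING1. CCL2, a chemokine that draws monocytes, was at 1.91, 0.705 and 1.61 CPM in empty capsid and 5.12, 4.50 and 4.90 CPM after intmiS1, and at 0 to 3.50 CPM in vehicle and 10.7 to 32.1 CPM after AAV.miS1. All treated libraries were above the controls of their study, and the difference for CCL2 was 1.71 (95% interval 0.19 to 3.23). This set was defined from the values and is a description.

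Lists close to the design of the vectors had medians near those of all genes. The 25 tested genes of microRNA processing had medians of 0.03 after AAV.miS1 and 0.16 after intmiS1. After AAV.miS1 3 of the 25 rose and none fell, beside 12.8% and 2.43% of all genes. MOV10, a helicase of the silencing complex that interferon also induces, was at 14.9 to 28.8 CPM in vehicle and 20.04 to 65.0 CPM after AAV.miS1, and at 39.7, 41.3 and 43.8 CPM in empty capsid and 23.5, 30.7 and 39.95 CPM after intmiS1. Its difference was 1.64 ± 0.46 (SE, DESeq2 adjusted p = 0.04), and that of TUT7, which adds uridines to microRNA precursors, was 1.44 ± 0.53. The 25 tested ATXN1 partners and capicua targets had medians of 0.09 and 0.03. After AAV.miS1 2 of the 25 rose and 2 fell, beside the same 12.8% and 2.43%. Their median difference of 0.16 became -0.02 under upper-quartile scaling. SP1, a transcription factor, and SPRED2, an inhibitor of the mitogen-activated kinase cascade, had the smallest p there, with differences of 1.06 ± 0.34 and -0.62 ± 0.26 (SE), the former 0.60 with intmiS1 replicate 3 alone.

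The AAV.miS1 libraries spanned a wide range, and replicate 5 was often nearest to the controls. The summed level of the activated phagocyte genes was 75800, 13960, 28270, 48760, 4617 and 9368 CPM in AAV.miS1 replicates 1 to 6, and 2263, 2725 and 2870 CPM in intmiS1 replicates 1 to 3. The summed level of general neuronal genes was 380, 2448, 4522, 1929, 8980 and 6878 CPM in the same AAV.miS1 libraries and 10590, 7138 and 8560 CPM after intmiS1. Replicate 1 thus had the highest phagocyte and the lowest neuronal sum, and replicate 5 the lowest and the highest. The share of reads on the vector reference, scaled like CPM, was 22.2, 548, 107, 100.5, 24.0 and 28.9 in AAV.miS1 replicates 1 to 6. Replicates 1 and 5, at the ends of both sums, were thus at 22.2 and 24.0. These are RNA reads and give no dose, and how the amount of vector relates to the sums was not tested. Vehicle replicates 1 to 4 held 0.816, 11.3, 6.71 and 0.337 on that reference, the 11.3 being 1 read. On its own vector reference intmiS1 held 568, 648 and 44.6 in replicates 1 to 3, with another reference name in replicate 3. Replicates 5 and 6 had over 15% unmapped reads, as had vehicle replicates 2, 3 and 4 and, in Study 2, intmiS1 replicates 1 and 2. Study 1 libraries under that limit include 1 vehicle library, so its spread was taken from the other groups, and edgeR called 1009 genes after AAV.miS1 and 1 in the difference. Those over it include only replicates 5 and 6 of AAV.miS1, with the lowest phagocyte sums, and 11 genes and 0 were called. The share of unmapped reads and the animals cannot be told apart in this split.

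In some genes intmiS1 libraries differed by the kind of count table they came from. In 941 genes (6.08%) both STAR libraries of intmiS1 lay over 2-fold below the featureCounts one, and in 138 (0.891%) over 2-fold above it. The genes below were chosen after their values were seen to show this. RPS13, a ribosomal protein, was at 2.57, 2.86 and 1.72 CPM in empty capsid and 66.3, 69.0 and 2.70 CPM in intmiS1 replicates 1 to 3. PPIA, the abundant isomerase cyclophilin A, was at 2.38 to 2.66 CPM in empty capsid and 45.9, 43.7 and 1.84 CPM after intmiS1. In both genes replicate 3, counted like the controls, was at their level. The changes after intmiS1 of 4.25 and 3.56 rested on replicates 1 and 2, and the differences of -3.31 for RPS13 and -3.34 for PPIA became 0.67 and 0.59 with replicate 3 alone. FDFT1, squalene synthase, showed the reverse with 302, 295 and 277 CPM in empty capsid and 44.0, 56.0 and 269 CPM after intmiS1, and vehicle and AAV.miS1 libraries at 36.4 to 50.2 CPM. Of the 22 genes that DESeq2 called after intmiS1, CDKN1A, EDA2R and RCHY1 had changes of 5.92, 2.53 and -0.82 with replicate 3 as the only intmiS1 library, and the others lay between -0.45 (PPIA) and 1.07 (EEF1A1, an elongation factor). With replicate 3 as the only intmiS1 library the median difference was 2.35 for interferon-stimulated genes, 3.08 for activated phagocytes and -1.11 for Purkinje cells, close to the values with all 3. It moved from 2.87 to 3.96 for cytotoxic lymphocytes, from 2.77 to 3.62 for B cells, from -0.22 to -0.56 for cholesterol synthesis, from 0.36 to 0.17 for endothelium, from 0.16 to 0.02 for ATXN1 partners and from 0.14 to -0.04 for heat shock genes. Other alternatives lowered the lymphocyte medians. Without intmiS1 replicate 3 they were 2.15 for cytotoxic lymphocytes and 2.23 for B cells. With DESeq2 on all libraries they were 1.89 and 2.16, and for T cells 1.66 beside 2.67 in the main fit.

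**Figure D4:**
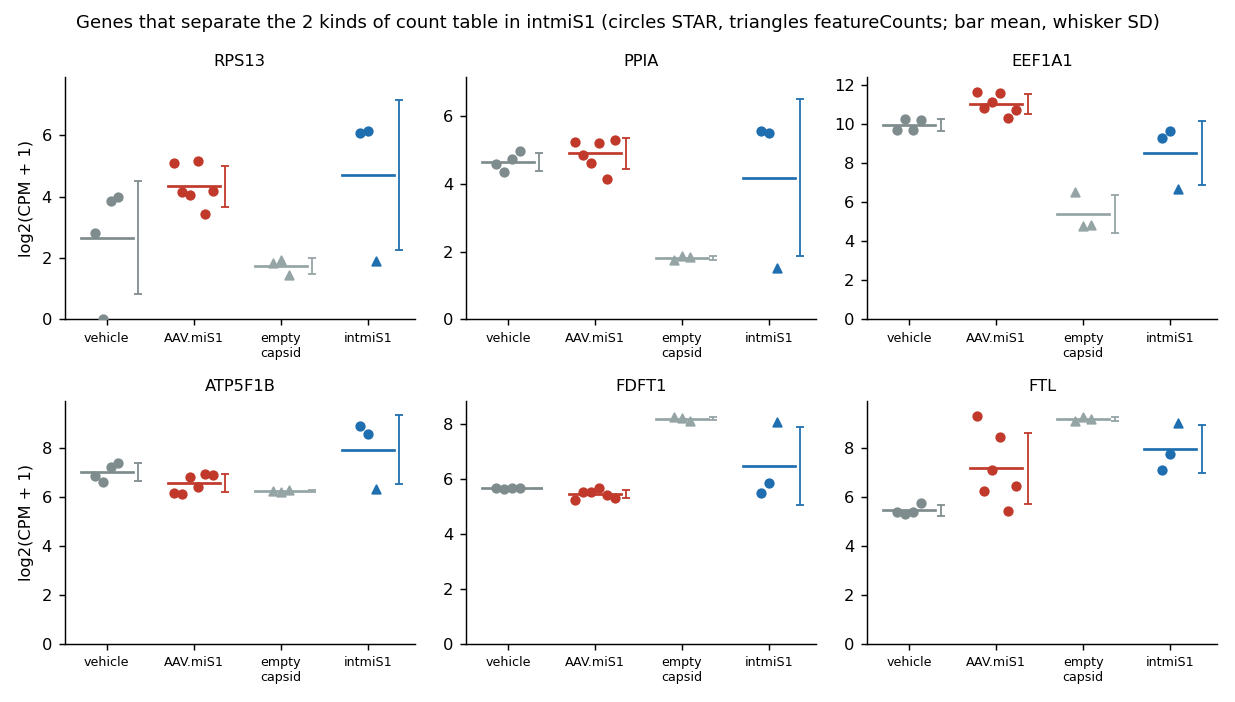
Log2(CPM + 1) of 6 genes by group and library, with circles for STAR tables, triangles for featureCounts tables, a bar for the mean of the log2 values and a whisker for their SD. The triangle of intmiS1 lies with the empty capsid triangles in RPS13, PPIA, ATP5F1B, FDFT1 and FTL, apart from the 2 circles of its own group, and nearer to them in EEF1A1.

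**Figure D5:**
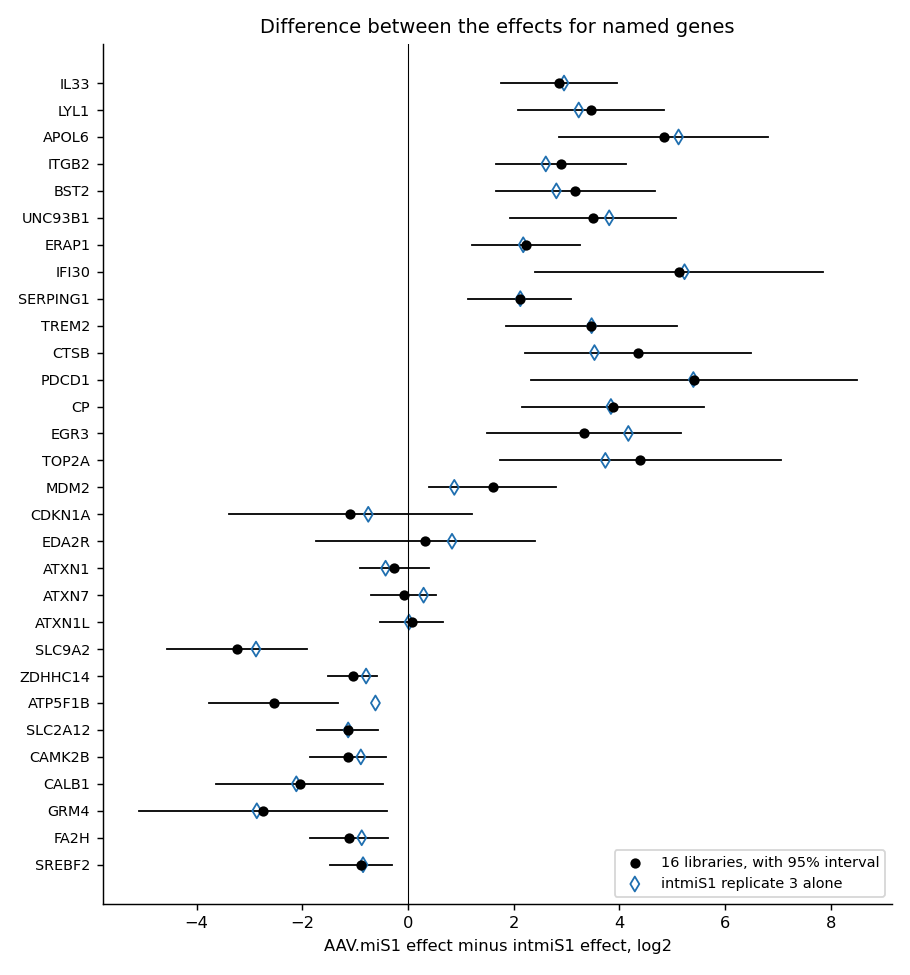
AAV.miS1 effect minus intmiS1 effect on the log2 scale for 30 genes, with the estimate from all 16 libraries and its 95% interval in black and the estimate with intmiS1 replicate 3 as the only intmiS1 library as open diamonds. The 16 immune, injury and division genes from IL33 to MDM2 have intervals above 0, CDKN1A, EDA2R, ATXN1, ATXN7 and ATXN1L have intervals that include 0, and the diamond of ATP5F1B at -0.61 is the one that lies outside its interval.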

How the data were processed

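Total RNA was depleted of ribosomal RNA and made into directional libraries, per the labels' protocols. The authors deposited raw counts per gene: STAR tables for Study 1 and intmiS1 replicates 1 and 2, and featureCounts tables, in which reads over several genes count for each gene per the file headers, for empty capsid and intmiS1 replicate 3. STAR 2.6.0c is named in the submitters' processing notes, and the genome build and annotation were not stated there. The reverse strand column was taken for Study 1 and the unstranded column for the STAR intmiS1 tables, on 34847 gene identifiers common to all files, and rows that name no gene, 63.6% to 72.1% of the reads in the STAR tables, were left out. Of gene counts under 20 from featureCounts, 61.6% to 63.9% were even, against 38.6% to 42.6% in the STAR tables, so mates may count separately there; halving those counts was an alternative. Vehicle replicate 2, with 87741 counts, has the least precision, and intervals on its values of 0 cover counting error only.

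Genes were filtered with filterByExpr (minimum count 10, minimum total 15), which left 15486, scaled by TMM and fitted with edgeR 4.0.16 (limma 3.58.1, R 4.3.3) in one quasi-likelihood model of the 4 groups with Benjamini-Hochberg adjustment. A test on simulated data with 200 changed genes was run first. DESeq2 1.42.0 and other scalings, filters, strand columns, weights and left-out libraries were alternatives. Tables and plots were made with Python 3.11.15, pandas 2.3.3, numpy 2.4.6 and matplotlib 3.10.9. Since no gene was called in the difference, the 4 genes with the smallest p on each side, with a symbol and a mean log2 CPM of at least 1, were named, with ATXN1, ATXN7 and the 2 smallest-p members of every list that is described; genes named outside this rule are said to be, or are cell type markers. 40 lists of 991 symbols were used. The comparison and the lists were chosen with earlier results of these data known. Values of some genes are not reported here.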

Additional observations from a re-analysis of the deposited data

Results flagged for a closer look

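Of 142 pairs of a named gene and a group of 4 or 6 libraries, 14 had a library far from the others by Dixon's criterion, which chance alone meets in about 1 group in 20. Vehicle replicate 2, with 87741 counts, was that library for 8 genes: it was highest for ITGB2 at 48.0 CPM, CD74 at 605 CPM, GDF15 at 9.60 CPM, UBE2L6 at 38.4 CPM, CTSS at 48.0 CPM and CTSB at 729.9 CPM, and lowest, at 0 CPM, for LYL1 and LAT. Among AAV.miS1 libraries, replicate 1 stood apart for ATXN1 at 91.0 CPM, and replicate 2 for CDKN1A at 484.7 CPM, EDA2R at 23.0 CPM and GRM4 at 105.4 CPM. Vehicle replicate 3 was the only vehicle library with counts of NKG7, at 0.267 CPM, and replicate 1 the only one with SST, at 0.404 CPM.

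The count tables of Study 2 also hold reference sequences named Rep2 and Cap1, which the comparisons do not use. The tables of Study 1 hold neither reference, so AAV.miS1 libraries have no value to set beside them. Scaled to 1000000 reads, Rep2 had 101, 87.5 and 3.10 reads in intmiS1 replicates 1, 2 and 3, and Cap1 had 79.1, 67.1 and 3.31. These were above the empty capsid libraries, and the origin of the reads was not tested.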

How the results depend on the processing

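For the difference, where edgeR called 0 genes, DESeq2 called 446, voom with sample weights 3140, intmiS1 replicates 1 and 2 alone 731, DESeq2 without intmiS1 replicate 3 1494, DESeq2 without intmiS1 replicates 1 and 2 5, and Study 1 libraries under 15% unmapped reads 1. Leaving out 1 library gave 0 to 854 calls, with 854 without AAV.miS1 replicate 5, 731 without intmiS1 replicate 3 and 1 without vehicle replicate 1. After AAV.miS1, 2365 calls became 4555 with voom, 621 with the unmapped share as a covariate, 11 over and 1009 under 15% unmapped reads, and 888 to 4196 without 1 library (1137, 888 and 1261 without vehicle replicates 1, 3 and 4, and 4196 without AAV.miS1 replicate 5). After intmiS1, 0 calls became 22 with DESeq2, 1 with no filter, 2968 with voom, 1031 with replicates 1 and 2 alone, 1 with the covariate, 1 over 15% unmapped reads, 1 over genes whose controls lie within 2-fold, 1453 and 1 with DESeq2 without replicate 3 and without replicates 1 and 2, and 0 to 1031 without 1 library. The causes were not tested.

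Of 2548 pairs of 1 of 70 single genes and an alternative, 2516 kept the sign of the difference, 32 reversed, and 256 passed the threshold. EDA2R became -0.120 with voom, -0.102 with the covariate, -0.097 with DESeq2 without intmiS1 replicate 3 and -0.346 under 15% unmapped reads, and was -0.222 to 0.841 without 1 library. ATXN7 became 0.296 with intmiS1 replicate 3 alone and 0.317 with DESeq2 without replicates 1 and 2, and was -0.327 to 0.009 without 1 library. ATXN1L became -0.126 with upper-quartile scaling, -0.006 with 22 libraries, -0.081 with voom, -0.007 with intmiS1 replicates 1 and 2 alone, -0.119 with the covariate, -0.018 with DESeq2 without replicate 3, and -0.233 over and -0.043 under 15% unmapped reads, and was -0.084 to 0.102 without 1 library. With intmiS1 replicate 3 alone, and with DESeq2 without replicates 1 and 2, RPS13 became 0.675 and 0.757, PPIA 0.592 and 0.639, and FDFT1 -0.186 and -0.133, and with the latter EEF1A1 became 0.035. BBC3 became -0.389 over 15% unmapped reads.

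With the replicate number as a block, 0 genes were called in the difference (2432 at an unadjusted p under 0.05), 1653 after AAV.miS1 and 0 after intmiS1. Same-numbered empty capsid and intmiS1 libraries had correlations of deviations of -0.077, -0.152 and -0.033. With 3 libraries per group and mixed counting programs in intmiS1, this cannot show whether the numbers pair them. Alternatives on counting program with DESeq2, unmapped reads, control levels and halved featureCounts counts were added after seeing the data. The intmiS1 arm has 3 animals, of which 1 was counted like its controls, and vehicle replicate 2 resolves no gene below 9.6 CPM.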
